A study of Mus musculus with 8 samples.

Results

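The genes described here encode the mitochondrial enzymes that oxidise fatty acids and the branched-chain amino acids, with the transporters, electron carriers and ketone body enzymes that serve them. They were listed by name, with earlier results of these data known. Of 39 listed genes, 38 were measured by a probe set annotated to that gene alone, among 30701 named genes in all. Etfb was not analysed here, because its probe set is annotated to a microRNA gene as well. All 8 mice were Rag1-/- on the C57BL/6 strain, which make no mature T or B cells. Colon tissue came from 3 recipients of naïve T cells whose colons were severely inflamed (inflamed) and from 5 recipients of regulatory T cells whose colons were not (control). Transfer was at 10 weeks of age and tissue was taken 2 to 4 months later, while the age given for every mouse is 4 to 5 months. The labels name the distal colon in one place and a strip of the whole colon in another, so the sampled region is uncertain. Each sample was run on 1 Affymetrix array, and how precise a value can be depends on how few arrays there are. Values are RMA log2 intensities, and the test was limma with Benjamini-Hochberg adjustment over all named genes. A gene is said to have risen or fallen at an adjusted p under 0.05. Differences are inflamed minus control on the log2 scale, with the limma standard error (SE) after ±.

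Long-chain fatty acids enter mitochondria as carnitine esters. Inside, fatty acids are shortened by a repeated sequence of dehydrogenation, hydration, a second dehydrogenation and thiolysis. This sequence passes electrons to the respiratory chain through the electron transfer flavoprotein. Leucine, isoleucine and valine are broken down by related enzymes, and isoleucine and valine end as propionyl-CoA, which is carboxylated and rearranged to enter the citric acid cycle. Colon epithelial cells use the shortening steps in particular for butyrate, a short-chain fatty acid made by gut bacteria, which is their main fuel.

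Some limits of the arrays come first. Inflamed replicate 2 stood apart: its limma array weight was 0.174, against 0.841 to 1.71 on the other 7 arrays, and 37.7% of all named genes lay below the control range on it, against 27.1% and 22.1% on inflamed replicates 1 and 3. Xist, the RNA of the inactive X chromosome, was high on inflamed replicate 3 and controls 3, 4 and 5 (10.65 to 11.28) and low on the other arrays (4.11 to 4.53), and both groups held arrays of each pattern. Against the label of colon tissue, 17 measured epithelial markers were checked, and all had means above the median intensity of the arrays (4.89) in both groups. All 38 oxidation genes had means above that level in both groups as well.

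Most of the genes were lower in inflamed colon by small amounts, and a smaller number passed the test. Of the 38 measured, 11 fell and 2 rose, while 25 did not pass. Among all named genes 13.1% changed, 5.04% downward and 8.06% upward. Among the 19301 named genes with a control mean above the array median of 4.89, as all 38 have, 7.6% fell and 11.5% rose. The median difference over the 38 genes was -0.28, against -0.01 over all named genes. Of the 38, 33 were lower in inflamed colon, against 16954 of all 30701 named genes. The largest falls were those of Hadh, Cpt1a, Acaa2 and Pcca, and the rises were those of Acadl and Acad9. Among the 13 called genes Hadh alone passed 2-fold. Of all named genes, 0.889% fell and 1.48% rose by at least 2-fold. In 14 genes the 3 inflamed values all lay below the 5 control values and in 2 they all lay above, which held for 9.17% and 12% of named genes. Bulk tissue cannot tell fewer cells of a type from less RNA per cell.

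The counts depended on single inflamed arrays. Without inflamed replicate 1, 6 genes fell and 1 rose. Without inflamed replicate 2, 21 fell and 1 rose, and without inflamed replicate 3, 9 fell and 2 rose. Of the 2 risen genes, Acadl alone was called without control 2, 3 or 4.

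**Figure D1:**
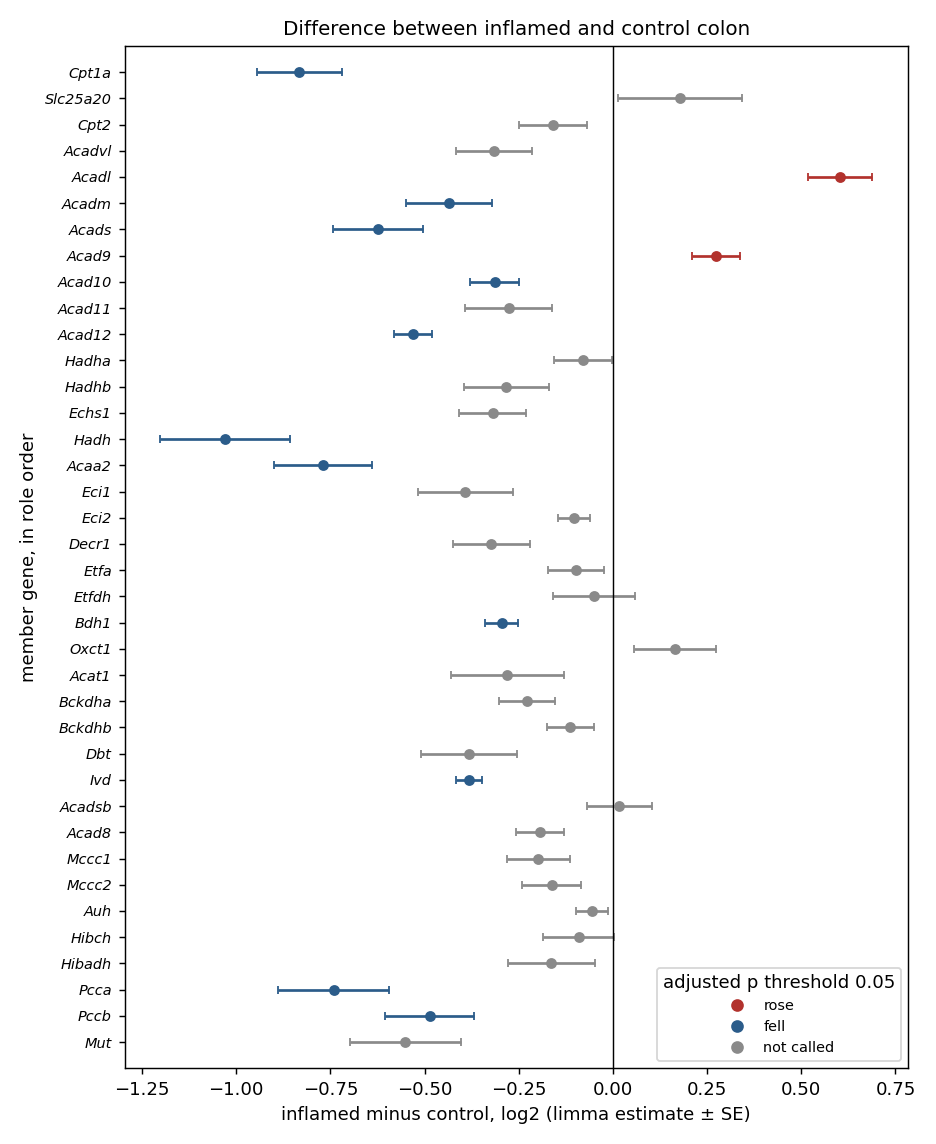
Difference between inflamed (n = 3) and control (n = 5) colon for the 38 measured genes, in role order. The x axis is the log2 difference with the limma SE as bars, and colour marks genes that rose, fell or were not called. The 2 risen genes, Acadl and Acad9, stand right of 0 among acyl-CoA dehydrogenases that mostly lie left of it.

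Windows around the start of 6 of these genes, from 250 bases before to 50 after it, are shown as those of genes with large or clear differences, with 2 that held the NRF1 core. Sequences are those of RefSeq on GRCm38.p6, 5′ to 3′ on the strand of the gene. Capitals mark a GC box, a CCAAT box or the core of the NRF1 motif, on either strand. Hadh and Cpt1a had the largest falls, Ivd the lowest adjusted p, Acadl rose, and Acad12 and Acadm fell and held the NRF1 core.
Hadh (chr3:131272052-131272351, minus strand): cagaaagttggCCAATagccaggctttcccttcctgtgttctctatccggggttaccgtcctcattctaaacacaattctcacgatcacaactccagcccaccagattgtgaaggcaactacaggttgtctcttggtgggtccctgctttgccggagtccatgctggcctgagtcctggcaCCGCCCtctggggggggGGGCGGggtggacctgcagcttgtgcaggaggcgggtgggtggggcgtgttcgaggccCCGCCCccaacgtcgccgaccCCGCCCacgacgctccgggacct
Cpt1a (chr19:3323051-3323350, plus strand): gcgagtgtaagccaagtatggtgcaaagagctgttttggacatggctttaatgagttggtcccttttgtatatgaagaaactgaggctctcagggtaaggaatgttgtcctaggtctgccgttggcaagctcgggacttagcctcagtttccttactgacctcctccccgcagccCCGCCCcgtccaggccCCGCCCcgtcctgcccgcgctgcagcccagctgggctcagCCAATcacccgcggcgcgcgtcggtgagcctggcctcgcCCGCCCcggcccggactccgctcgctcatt
Ivd (chr2:118861744-118862043, plus strand): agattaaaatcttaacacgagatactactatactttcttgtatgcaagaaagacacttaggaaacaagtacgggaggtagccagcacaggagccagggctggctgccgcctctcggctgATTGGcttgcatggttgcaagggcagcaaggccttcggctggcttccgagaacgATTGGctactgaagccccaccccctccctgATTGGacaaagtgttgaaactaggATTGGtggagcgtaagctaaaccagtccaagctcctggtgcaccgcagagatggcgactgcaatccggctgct
Acadl (chr1:66863260-66863559, minus strand): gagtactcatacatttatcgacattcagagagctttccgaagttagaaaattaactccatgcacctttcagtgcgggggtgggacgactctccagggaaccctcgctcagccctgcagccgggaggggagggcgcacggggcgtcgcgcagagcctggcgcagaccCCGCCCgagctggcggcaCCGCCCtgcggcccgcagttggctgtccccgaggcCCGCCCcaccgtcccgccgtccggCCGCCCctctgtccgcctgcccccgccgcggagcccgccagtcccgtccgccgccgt
Acad12 (chr5:121618889-121619188, minus strand): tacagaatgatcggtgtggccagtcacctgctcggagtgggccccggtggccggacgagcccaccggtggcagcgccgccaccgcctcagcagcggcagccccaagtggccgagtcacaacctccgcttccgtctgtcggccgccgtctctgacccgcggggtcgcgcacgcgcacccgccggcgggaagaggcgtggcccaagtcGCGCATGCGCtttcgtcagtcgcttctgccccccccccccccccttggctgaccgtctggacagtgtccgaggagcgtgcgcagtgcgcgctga
Acadm (chr3:153944594-153944893, minus strand): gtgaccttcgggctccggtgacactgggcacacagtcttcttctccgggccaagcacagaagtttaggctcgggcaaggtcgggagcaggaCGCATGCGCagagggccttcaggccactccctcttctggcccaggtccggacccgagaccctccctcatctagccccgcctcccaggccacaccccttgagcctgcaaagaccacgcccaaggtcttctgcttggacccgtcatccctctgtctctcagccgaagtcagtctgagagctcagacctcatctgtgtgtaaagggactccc
Windows of 32 of the 38 genes were searched, and where RefSeq listed several starts for one of them the first was used. A filter on chromosome left out Acaa2, a fallen gene. The windows of all genes were not filtered by chromosome and not reduced to the first start. The NRF1 core, searched as GCGCATGCG on both strands, was in 5 of the 32 windows (15.6%), those of Acad10, Acad12, Acadm, Etfdh and Pccb, and in 1.75% of 32851 windows of all genes. Among the 10 fallen genes whose window was searched, 4 held the NRF1 core, 4 held CCAAT and 3 held the GC box. The 4 with the NRF1 core were Acad10, Acad12, Acadm and Pccb, and of these Acad12 alone was called without any 1 array. The motifs were chosen after seeing the data, and a part of NRF1 in the falls was not tested. NRF1 is a transcription factor of many genes for mitochondrial proteins. The GC box, searched as GGGCGG, was in 20 windows (62.5%) and in 35.7% of all, and CCAAT in 13 (40.6%) and in 37.4% of all. The 32 windows were richer in G and C (median 60.5%) than all windows (52.7%), and the part of base composition in these shares was not tested. The E-box CACGTG was in 1 window (3.12%), against 7.15% of all. The cyclic AMP response element TGACGTCA, the ERR element TCAAGGTCA and the nuclear receptor element called DR1 (an AGGTCA repeat with 1 base between) were in none of the 32, and in 1.79%, 0.423% and 0.0396% of all windows. The search was exact, so near matches were not counted, and a match describes letters, not binding.

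The carnitine shuttle was lower at its entry. Cpt1a, which joins long-chain fatty acids to carnitine at the outer membrane and is the controlled step of their import, was at 9.94, 9.93 and 9.62 on inflamed arrays, against 10.91, 10.71, 10.56, 10.62 and 10.50 on control arrays. The groups did not overlap, and the gap between them was wider than the range of either. Cpt1a fell by 0.83 ± 0.11 (adjusted p = 0.00414), to 56.2% of the control level. The call was kept without any 1 array (adjusted p = 0.0064 to 0.0142). The other shuttle genes were not called. Slc25a20, the translocase that exchanges acylcarnitine for carnitine across the inner membrane, differed by 0.18 ± 0.17 (adjusted p = 0.506). Its inflamed replicate 1 (11.28) and control 1 (11.19) were the highest arrays. Cpt2, which releases the acyl group inside, differed by -0.16 ± 0.091 (adjusted p = 0.3).

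The acyl-CoA dehydrogenases, which start each round and differ in the chain length they prefer, moved in both directions: of 8, 4 fell and 2 rose. The count of fallen genes was 1 without inflamed replicate 1 and 2 without control 2 or control 5. Acads, the enzyme for short chains such as butyryl-CoA, was at 8.58, 8.68 and 8.55 on inflamed arrays, against 9.50, 9.35, 9.25, 9.0 and 9.03 on control arrays. The inflamed values lay close together and below all controls, which were more spread. Acads fell by 0.62 ± 0.12 (adjusted p = 0.0155), to 64.9% of control, and the call ended without inflamed replicate 1 (adjusted p = 0.0589).

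Acadl, the long-chain enzyme, went the other way, with 11.06, 11.02 and 11.21 on inflamed arrays, against 10.47, 10.45, 10.30, 10.65 and 10.59 on control arrays. The groups did not overlap, with every inflamed value above every control. Acadl rose by 0.60 ± 0.085 (adjusted p = 0.0048), to 1.52 times control, and was called without any 1 array (adjusted p = 0.0072 to 0.0202). Acadvl, the enzyme for the longest chains, differed by -0.32 ± 0.10 (adjusted p = 0.0868), so the estimates for these enzymes had opposite signs.

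Acadm, the medium-chain enzyme, was at 8.83, 9.27 and 8.84 on inflamed arrays, against 9.60, 9.29, 9.40, 9.40 and 9.40 on control arrays. Inflamed replicate 2 was almost level with control 2, and the other inflamed arrays were well below. Acadm fell by 0.43 ± 0.11 (adjusted p = 0.0481), which is the called gene nearest the threshold, and this call was lost when inflamed replicate 1, inflamed replicate 3 or any 1 control was removed (adjusted p = 0.0689 to 0.158). Adding the Xist pattern as a factor ended it too (adjusted p = 0.0629).

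Acad12, a less studied relative, was at 5.25, 5.23 and 5.25 on inflamed arrays, against 5.76, 5.66, 5.80, 5.77 and 5.90 on control arrays. The inflamed values were nearly equal and the groups did not overlap. Acad12 fell by 0.53 ± 0.051 (adjusted p = 0.00113). Its intensities were not far above the array median of 4.89, the level used here to mark dim genes. Acad10, a relative with an added kinase-like region, fell by 0.31 ± 0.065 (adjusted p = 0.0211), and this call was lost with inflamed replicate 1, control 2 or control 5 removed (adjusted p = 0.0509 to 0.0571). Acad9, which also serves in the assembly of respiratory complex I, lay between 7.45 and 7.59 on inflamed arrays and between 7.07 and 7.32 on control arrays. It rose by 0.27 ± 0.063 (adjusted p = 0.0317). Acad9 was no longer called when inflamed replicate 1 or 2, or control 2, 3 or 4, was removed (adjusted p = 0.052 to 0.0983). It also missed the threshold with the Xist pattern as a factor (adjusted p = 0.0522), with a floor on low values (0.0536) and with arrays centred on structural epithelial genes (0.0584), and its estimate was 0.10 (adjusted p = 0.169) with arrays centred on mitochondrial import genes. Acad11, which acts on very long chains, differed by -0.28 ± 0.11 (adjusted p = 0.163).

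**Figure D2:**
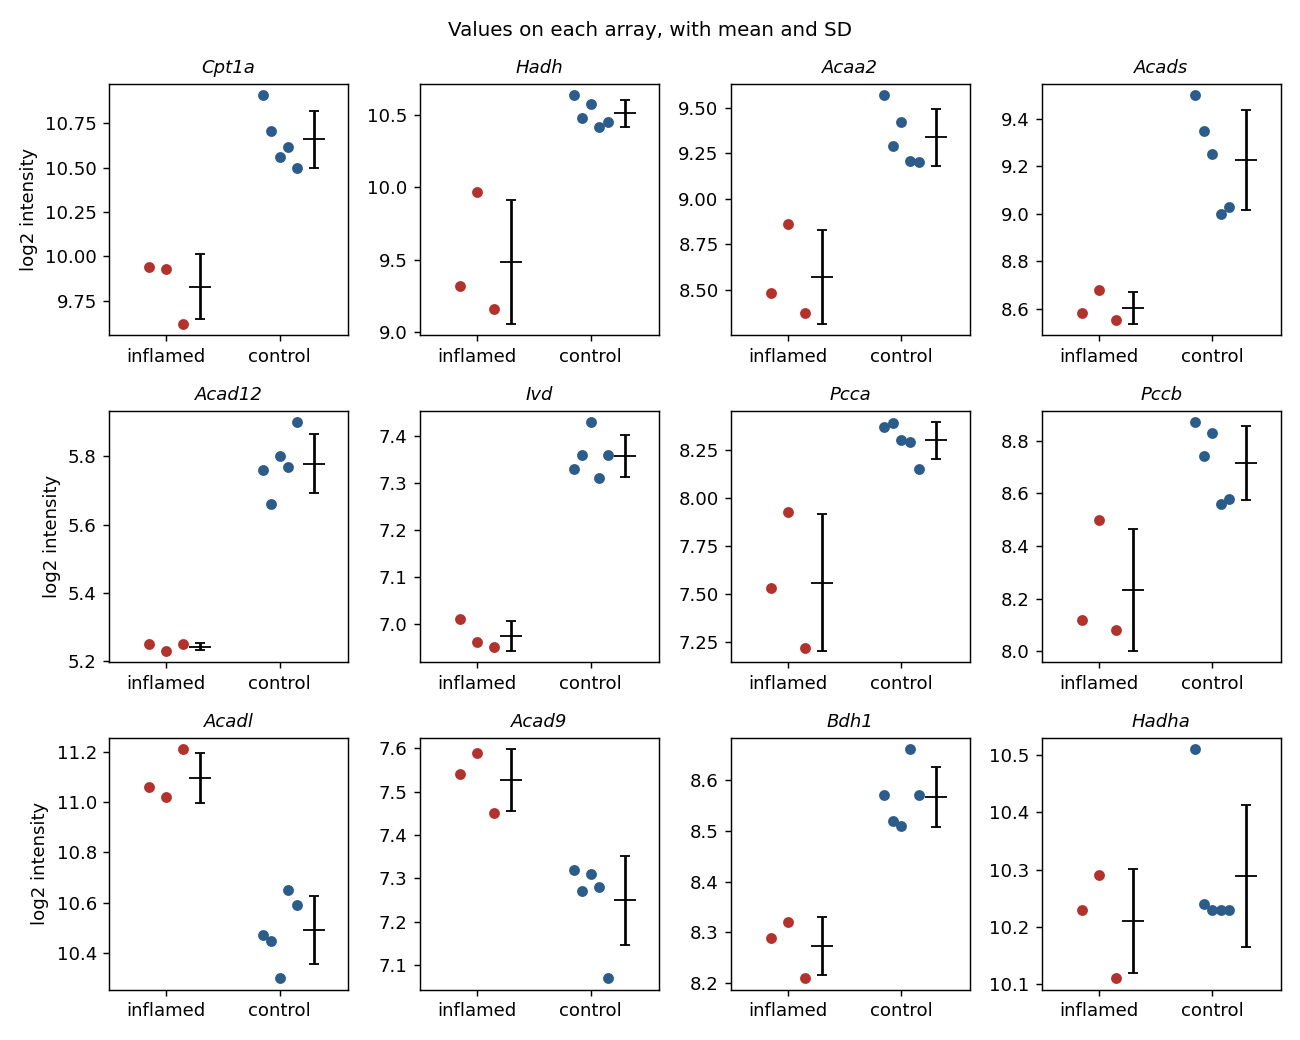
Log2 intensity on each array for 12 of the genes, with inflamed arrays (red, n = 3) left of control arrays (blue, n = 5) and the mean and SD in black beside each group. The y axes differ between panels and do not start at 0. Acadl and Acad9 are higher in inflamed colon, Hadha overlaps between the groups, and the other 9 genes are lower with no overlap.

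Of 5 genes of the later steps of the spiral, Hadh and Acaa2 fell, while Echs1, Hadha and Hadhb were not called. Hadh, the 3-hydroxyacyl-CoA dehydrogenase of short and medium chains, was at 9.32, 9.97 and 9.16 on inflamed arrays, against 10.64, 10.48, 10.58, 10.42 and 10.45 on control arrays. All inflamed values were below all controls, with inflamed replicate 2 the highest of the 3. Hadh fell by 1.03 ± 0.17 (adjusted p = 0.00935), to 49.0% of control. It was called without any 1 array (adjusted p = 0.000715 to 0.0423).

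Acaa2, the thiolase that ends each round, was at 8.48, 8.86 and 8.37 on inflamed arrays, against 9.57, 9.29, 9.42, 9.21 and 9.20 on control arrays. Its pattern was that of Hadh, with no overlap and inflamed replicate 2 highest. Acaa2 fell by 0.77 ± 0.13 (adjusted p = 0.0098), to 58.6% of control, and was called without any 1 array (adjusted p = 0.0052 to 0.0442). Echs1, the hydratase of short chains, differed by -0.32 ± 0.089 (adjusted p = 0.057).

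Hadha and Hadhb, the subunits of the trifunctional protein that carries out these steps on long chains, differed by -0.08 ± 0.078 (adjusted p = 0.533) and by -0.28 ± 0.11 (adjusted p = 0.15). The genes lie head to head: their RefSeq windows, chr5:30154931-30155230 and chr5:30155003-30155302 on opposite strands, share 228 bases. The log2 ratio of Hadha to Hadhb was 0.81 ± 0.062 in inflamed colon and 0.60 ± 0.086 in control colon (SD, n = 3 and 5); only its change between groups can be read, since the 2 probe sets differ in response. An exact two-sided permutation test over arrays gave p = 0.0179, the smallest that 56 arrangements allow, and 0.0714 after adjustment over 4 pairs of subunits. The pair Pcca and Pccb had p = 0.0357 (adjusted 0.0714), Bckdha and Bckdhb p = 0.393 (adjusted 0.524), and Mccc1 and Mccc2 p = 0.696 (adjusted 0.696), in the same exact test, so no pair passed.

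The enzymes that prepare unsaturated fatty acids for the spiral were not called, and all 3 estimates were below 0. Eci1, an isomerase that moves the double bond, was at 7.55, 7.89 and 7.41 on inflamed arrays, against 7.93, 8.08, 8.24, 7.85 and 7.94 on control arrays. Inflamed replicate 2 lay inside the control range and the other inflamed arrays below it. The difference was -0.39 ± 0.13 (adjusted p = 0.0881). The reductase gene Decr1 differed by -0.32 ± 0.10 (adjusted p = 0.0824) and the second isomerase gene Eci2 by -0.10 ± 0.043 (adjusted p = 0.163). Without inflamed replicate 2, Eci1 and Decr1 passed the test (adjusted p = 0.0266 and 0.0202).

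Neither measured gene of electron transfer passed the test. Etfa, a subunit of the electron transfer flavoprotein, was at 9.88, 9.99 and 9.68 on inflamed arrays, against 10.02, 9.88, 9.95, 10.03 and 9.87 on control arrays. The groups overlapped, and the difference was -0.10 ± 0.075 (adjusted p = 0.418). Etfdh, which hands the electrons to ubiquinone, differed by -0.05 ± 0.11 (adjusted p = 0.795), and its inflamed replicate 2 (8.70) was the highest of the 8 arrays.

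Of the 3 genes of ketone body use, 1 fell. Bdh1, which interconverts the ketone bodies hydroxybutyrate and acetoacetate, was at 8.29, 8.32 and 8.21 on inflamed arrays, against 8.57, 8.52, 8.51, 8.66 and 8.57 on control arrays. Both groups were tight and did not overlap. Bdh1 fell by 0.29 ± 0.044 (adjusted p = 0.00577), to 81.5% of control, and was called without any 1 array (adjusted p = 0.0103 to 0.0226). Oxct1, which activates acetoacetate, differed by 0.17 ± 0.11 (adjusted p = 0.355). Acat1, the thiolase that splits acetoacetyl-CoA and also serves isoleucine breakdown, differed by -0.28 ± 0.15 (adjusted p = 0.27). On Acat1 inflamed replicate 2 (10.41) was above every control while inflamed replicates 1 and 3 (9.75 and 9.78) were below every control.

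Of 14 genes of branched-chain amino acid breakdown, 3 fell and 0 rose, with 8 (57.1%) at an unadjusted p under 0.05 in the same limma fit, against 28.5% of all named genes. Their median difference was -0.20, against -0.31 for the 21 measured genes of fatty acid import and oxidation, of which 7 fell and 2 rose. No gene of the branched-chain ketoacid dehydrogenase, the committed step, was called. Dbt, its acyltransferase subunit, was at 7.25, 7.80 and 7.31 on inflamed arrays, against 7.98, 7.77, 7.74, 7.84 and 7.88 on control arrays. Inflamed replicate 2 lay within the control range and the other inflamed arrays well below it. The difference was -0.38 ± 0.13 (adjusted p = 0.0972), and without inflamed replicate 2 Dbt passed (adjusted p = 0.00548). Bckdha and Bckdhb, the subunits of the decarboxylase, differed by -0.23 ± 0.073 (adjusted p = 0.0871) and by -0.11 ± 0.062 (adjusted p = 0.278).

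Ivd, the isovaleryl-CoA dehydrogenase of leucine breakdown, had the lowest adjusted p of the 38 oxidation genes. It was at 7.01, 6.96 and 6.95 on inflamed arrays, against 7.33, 7.36, 7.43, 7.31 and 7.36 on control arrays. Inflamed replicate 2 lay with the other inflamed arrays, and the gap to the controls was wider than the range of either group. Ivd fell by 0.38 ± 0.034 (adjusted p = 0.000859), to 76.8% of control, and was called without any 1 array (adjusted p = 0.0022 to 0.0042). The other 5 genes of this group were not called, although 4 of the 6 fell without inflamed replicate 2. Acad8, which acts in valine breakdown, differed by -0.19 ± 0.063 (adjusted p = 0.0914), and Acadsb, which acts in isoleucine breakdown, by 0.02 ± 0.086 (adjusted p = 0.922). The methylcrotonyl-CoA carboxylase subunits Mccc1 and Mccc2 differed by -0.20 ± 0.083 (adjusted p = 0.168) and by -0.16 ± 0.078 (adjusted p = 0.223). Auh, the hydratase that follows them, differed by -0.05 ± 0.042 (adjusted p = 0.427).

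Both subunits of propionyl-CoA carboxylase fell, the 2 called genes of 5 in valine and propionyl-CoA breakdown. In this group 0 were called by limma without inflamed replicate 1, 1 without inflamed replicate 3 or any 1 control, and 4 without inflamed replicate 2. Pcca, the biotin-carrying subunit, was at 7.53, 7.93 and 7.22 on inflamed arrays, against 8.37, 8.39, 8.30, 8.29 and 8.15 on control arrays. The inflamed values were spread over a range wider than the controls but all lay below them. Pcca fell by 0.74 ± 0.15 (adjusted p = 0.0182), to 59.8% of control, and the call ended without inflamed replicate 1 (adjusted p = 0.0663).

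Pccb, the carboxyltransferase subunit, was at 8.12, 8.50 and 8.08 on inflamed arrays, against 8.87, 8.74, 8.83, 8.56 and 8.58 on control arrays. Inflamed replicate 2 was close under the lowest control. Pccb fell by 0.49 ± 0.12 (adjusted p = 0.0371), and removing inflamed replicate 1, inflamed replicate 3 or any 1 control left it uncalled (adjusted p = 0.0517 to 0.128). Mut, named Mmut in RefSeq, encodes the vitamin B12-dependent mutase that follows and lay just outside the threshold. It was at 8.18, 8.78 and 8.09 on inflamed arrays, against 8.95, 8.81, 8.91, 8.88 and 8.94 on control arrays. The groups did not overlap, but inflamed replicate 2 was just under the lowest control. The difference was -0.55 ± 0.15 (adjusted p = 0.0506), and without inflamed replicate 2 it was -0.77 (adjusted p = 0.000723). Hibch and Hibadh, which act before propionyl-CoA in valine breakdown, differed by -0.09 ± 0.094 (adjusted p = 0.551) and by -0.16 ± 0.11 (adjusted p = 0.385).

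Inflamed replicate 2 differed from the other inflamed arrays in most of these genes. In 27 of the 38 genes (71.1%) its value was the highest of the 3 inflamed arrays, which was so for 35.4% of the 19301 named genes with a control mean above the array median. This held for all 5 genes of the later spiral, all 5 of valine and propionyl-CoA, all 3 of unsaturated fatty acids and all 3 of ketone bodies, and for none of the carnitine shuttle. On inflamed replicates 1 and 3, 29 and 32 of the 38 genes lay below the control range. On inflamed replicate 2, 15 lay below it, 15 within it and 8 above. Of all named genes, 27.1%, 37.7% and 22.1% lay below the control range on inflamed replicates 1, 2 and 3. On inflamed replicate 2, 27% of all named genes lay above it. The median over the genes of the deviation from the control mean was -0.27, -0.10 and -0.38 on inflamed replicates 1, 2 and 3, and between -0.06 and 0.07 on controls. The median SD of the genes was 0.188 in inflamed and 0.0957 in control colon, against 0.128 and 0.088 for those 19301 genes. The part of that array's quality or of the animal's disease in this pattern was not tested.

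**Figure D3:**
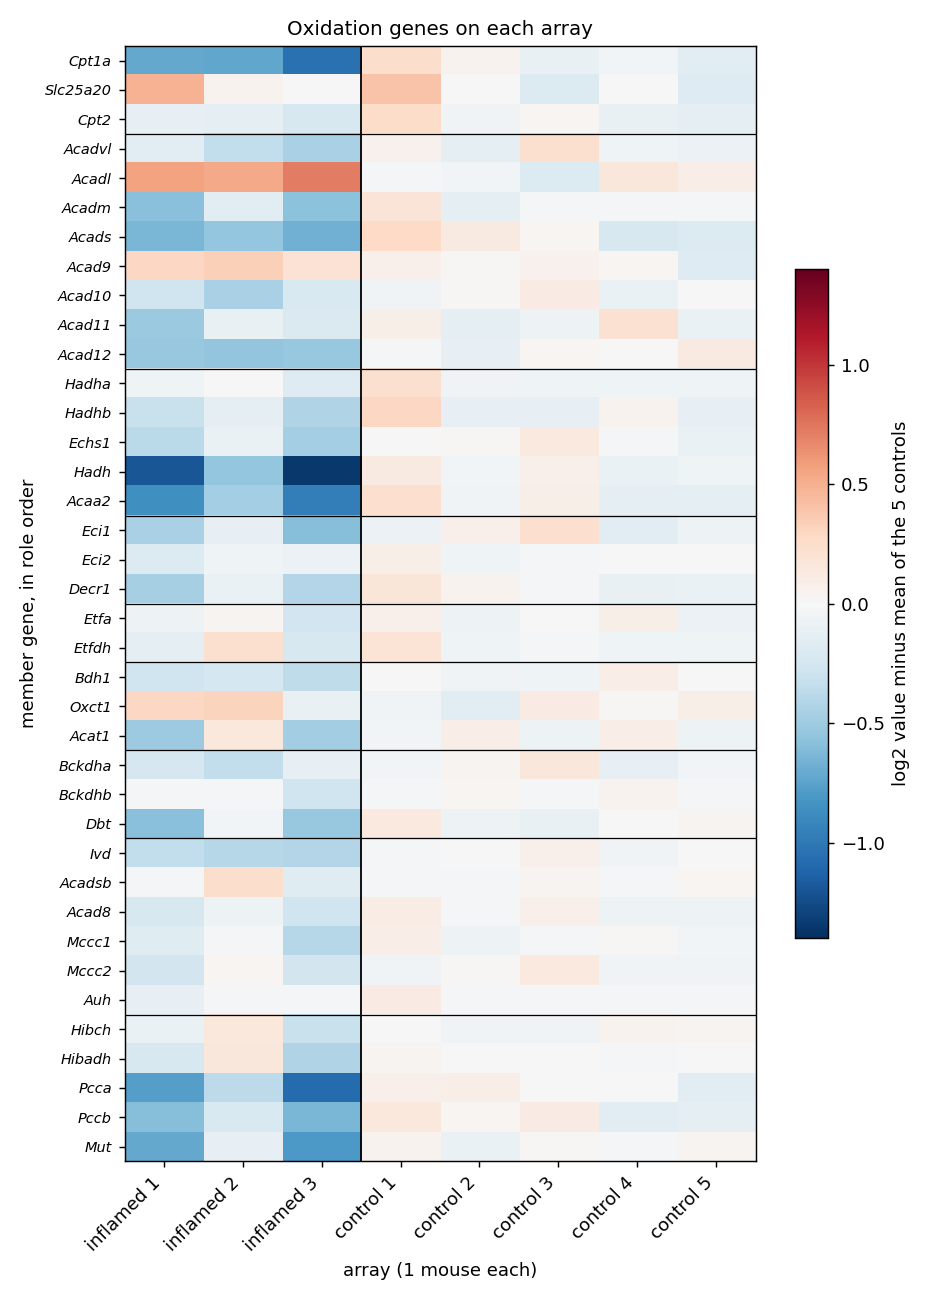
Deviation of each log2 value from the mean of the 5 controls, for 38 genes in role order (rows, groups divided by lines) on the 3 inflamed and 5 control arrays (columns). Blue is lower and red higher than the control mean. Inflamed replicate 2 is paler than inflamed replicates 1 and 3 in Hadh, Acaa2, Pcca and Mut, and in Acad12 and Ivd the 3 inflamed arrays look alike.

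The median difference over the 38 genes was -0.23 within the arrays with low Xist (2 inflamed against 2 control). It was -0.35 within the arrays with high Xist (1 against 3, where the lone inflamed array has no replicate). The groups did not overlap in any of the 13 called genes, so their direction within each set follows from that and adds nothing. With the pattern as a factor, 10 genes fell and 1 rose.

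Other genes around these pathways, outside the 39, included larger differences at the step that activates fatty acids. Of 22 measured genes of activation, carnitine and acyl-CoA handling, 4 fell and 3 rose, against 5.04% and 8.06% of all named genes. Acsm3, a medium-chain acyl-CoA synthetase that accepts butyrate, fell by 2.26 ± 0.435 (adjusted p = 0.016). Its inflamed values were widely spread, at 7.06, 8.16 and 5.92, against 9.06 to 9.44 on control arrays. Acsf2, of the same superfamily, fell by 1.14 ± 0.20 (adjusted p = 0.0112). Acot9, a mitochondrial acyl-CoA thioesterase, rose by 1.57 ± 0.099 (adjusted p = 0.000268). The count of fallen genes was 1 without inflamed replicate 1, 2 without inflamed replicate 3 and 7 without inflamed replicate 2.

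Of 13 other genes of branched-chain breakdown 3 fell and 0 rose, and 4 (30.8%) had an unadjusted p under 0.05 by limma, close to the share of all named genes. The fallen genes were Aldh6a1, which makes propionyl-CoA from valine, by 0.97 ± 0.23 (adjusted p = 0.0347), the mitochondrial branched-chain amino acid carrier Slc25a44 by 0.43 ± 0.091 (adjusted p = 0.022), and Hsd17b10 of isoleucine breakdown by 0.25 ± 0.062 (adjusted p = 0.0417). None of the 13 was called without inflamed replicate 1 or 3, 1 without any 1 control, and 4 without inflamed replicate 2. Of 4 measured genes of ketone synthesis and related steps 0 were called by limma and 0 had an unadjusted p under 0.05, the largest difference being 0.14 ± 0.089 for Aacs (adjusted p = 0.333).

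General mitochondrial genes were counted in the same fit, in which 5.04% of all named genes fell and 8.06% rose. In the tricarboxylic acid cycle 2 of 15 measured genes fell and 0 rose, with a median difference of -0.13. Ogdh fell by 0.45 ± 0.063 (adjusted p = 0.0048) and Suclg2 fell by 0.36 ± 0.093 (adjusted p = 0.0438). Without inflamed replicate 2, 6 of the 15 fell, and without inflamed replicate 3 or any 1 control, 1 did. Of 14 genes of mitochondrial import, chaperones and outer membrane channels, 6 rose and 1 fell, with a median difference of 0.24. The channel gene Vdac3 fell by 0.53 ± 0.073 (adjusted p = 0.00445), while the import genes Tomm20 and Timm23 rose, Tomm20 by 0.46 ± 0.067 (adjusted p = 0.00531) and Timm23 by 0.40 ± 0.096 (adjusted p = 0.0341). The risen count was 2 without inflamed replicate 1, and 3 without inflamed replicate 2, control 2, control 4 or control 5. Set against the mean of that list on each array, 32 of the 38 oxidation genes fell and 1 rose, but under this scaling the median difference was -0.18 over all named genes and -0.45 over the oxidation genes.

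**Figure D4:**
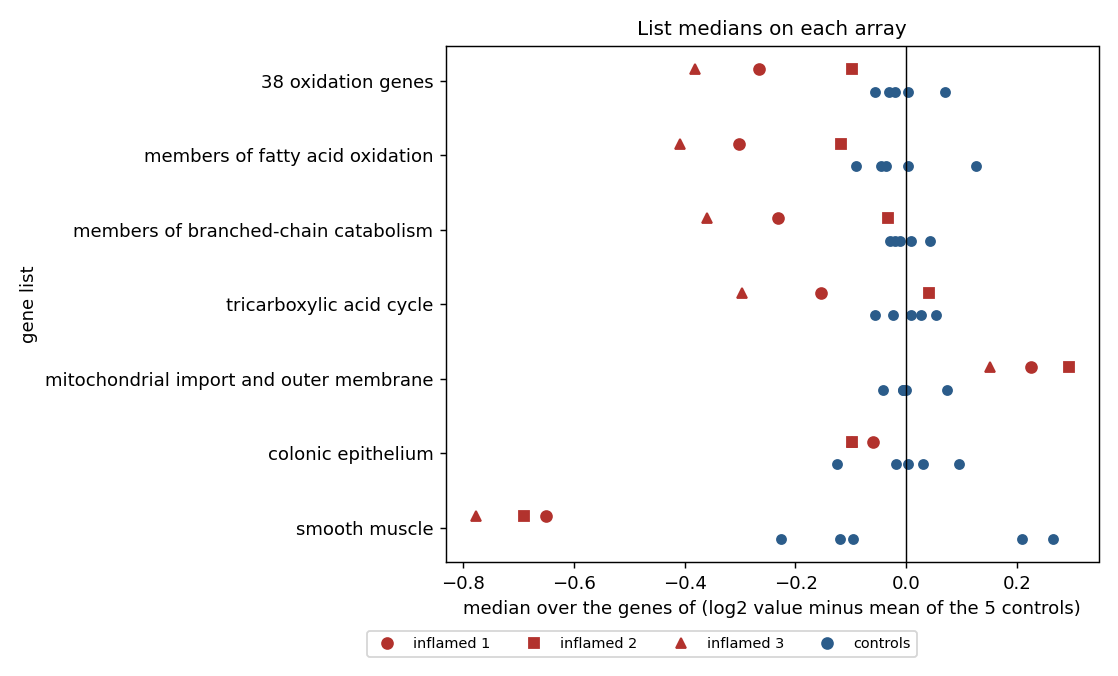
Median over the genes of each list of the log2 value minus the control mean, for the 3 inflamed arrays (red symbols) and the 5 controls (blue). The oxidation genes lie lower on inflamed replicates 1 and 3 than on replicate 2, the mitochondrial import list lies right of all controls, and in the epithelial list the symbols of inflamed replicates 2 and 3 coincide.

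Markers of other cell types differed between the groups as well, in a fit where 5.04% of all named genes fell and 8.06% rose. All 16 leukocyte markers rose, and their summed linear intensity was 6416 to 11032 in inflamed colon and 1188 to 1343 in control colon. In control colon 14 of the 16 had means above the dim level, S100a8 and S100a9 being below it, so their folds depend on the background of the arrays. The largest rises were those of S100a8 by 6.57 ± 0.50 (adjusted p = 0.000535), S100a9 by 5.14 ± 0.59 (adjusted p = 0.00222) and Lyz2 by 2.76 ± 0.078 (adjusted p = 2.3e-05). Of 10 smooth muscle markers 7 fell and 0 rose, led by Myl9 (-1.10 ± 0.19, adjusted p = 0.0117), Cnn1 (-0.77 ± 0.13, adjusted p = 0.0112) and Des (-0.73 ± 0.17, adjusted p = 0.0298), with a summed intensity of 10422 to 11872 in inflamed colon and 15451 to 22323 in control colon. Of 9 fibroblast markers, 1 rose, Vim by 0.64 ± 0.12 (adjusted p = 0.0156), and 1 fell, Dpt by 0.58 ± 0.15 (adjusted p = 0.0422; not called with any 1 array but control 2 removed), with sums of 2649 to 3457 in inflamed and 2335 to 3093 in control colon.

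Epithelial markers split. Of 17 measured, 5 fell and 1 rose, against 5.04% and 8.06% of all named genes. Sums over the 17 were 51778 to 59407 in inflamed colon and 58761 to 64873 in control colon. Without inflamed replicate 1 or 3, 3 fell. Markers of mature surface cells moved both ways. Aqp8, a water channel, fell by 2.15 ± 0.41 (adjusted p = 0.0151), Fabp2, a fatty acid binding protein gene, fell by 1.73 ± 0.24 (adjusted p = 0.00457) and the chloride exchanger gene Slc26a3 fell by 1.30 ± 0.32 (adjusted p = 0.0389). The 1 that rose was the keratin gene Krt20, by 0.58 ± 0.12 (adjusted p = 0.0199). No epithelial marker rose without inflamed replicate 1, inflamed replicate 2, control 2 or control 5. Epcam, present in all epithelial cells, differed by -0.01 ± 0.032 (adjusted p = 0.938) and Cdh1 by 0.02 ± 0.049 (adjusted p = 0.864). With each array centred on 7 structural epithelial genes, 15 of the 38 oxidation genes fell and 1 rose. The part of changed proportions of leukocytes, muscle or mature absorptive cells in the differences of the oxidation genes was not tested.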

How the data were processed

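Total RNA of 8 mouse colon samples was measured on 1 array each. The authors deposited log2 intensities per probe set, made with Affymetrix Expression Console and RMA, per the submitters' processing notes; no version is named there. That the scale is log2 was read from the values themselves. Detection calls were not used. Of 72688 probe sets, 6732 controls were left out. Symbols came from the platform annotation, updated through RefSeq (GRCm38.p6): 31258 probe sets had 1 gene, 1492 had several and stayed unnamed, and 33206 had none. The brightest probe set per gene by mean over all arrays was used, although each oxidation gene had only 1. Groups were compared by lmFit and eBayes without covariates (limma 3.58.1, run under R 4.3.3) over all 30701 named genes, after a test on simulated data. Every member may be named, with values on every array for up to 4 called members of a role group (the largest differences), or the largest of any where none was called; of each list outside, up to 3 called genes were named. The members and lists were chosen with earlier results of these data known. The epithelial centring and the motifs were chosen after seeing the data. The labels call the replicates biological, and p-values measure the spread between these mice.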

Additional observations from a re-analysis of the deposited data

Results flagged for a closer look

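The 5 control values of each of the 38 genes were screened for an array far from the others (Dixon's test at the 95% level, critical ratio 0.71), which chance flags in about 1 of 20 groups. It was met in 4 genes. Hadha was at 10.51 on control 1, against a control median of 10.23, and Etfdh was at 8.67 on control 1, against 8.42. Auh was at 6.53 on control 1, against 6.39. Acad9 was at 7.07 on control 5, against 7.28. In Hadha, Etfdh and Auh, which were not called, the deposited values were identical on 3 or more arrays, as in 7 of the 38 genes and 39.7% of all named genes; such repeats narrow the spread that the screen reads.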

How the results depend on the processing

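No called gene changed direction under any setting run, which for arrays left out follows from groups that do not overlap, and the calls of Cpt1a, Acadl, Acad12, Hadh, Acaa2, Bdh1 and Ivd were lost under the replicate block alone. With single arrays left out, 7 to 22 oxidation genes changed (6 to 21 fell, 1 to 2 rose), and 2510 to 4575 named genes did (847 to 1957 fell, 1663 to 2618 rose), against 13 and 4022 with all arrays. The lowest counts of oxidation genes came without inflamed replicate 1 and the highest without inflamed replicate 2. Array weights, which reduced inflamed replicate 2, gave 22 changed and 20 fallen oxidation genes and 2355 fallen genes overall. Centring on the mitochondrial import list gave 33 changed oxidation genes (32 fell, 1 rose) and 14967 changed genes (13256 lower, 1711 higher), against 1546 lower and 2476 higher with the arrays as deposited; centring on 7 structural epithelial genes gave 1919 lower and 1990 higher. A floor on low values left 1 risen oxidation gene and 1001 fallen genes, and 1 rose with the Xist pattern as a factor or with the epithelial centring, a setting chosen after seeing the data. With the replicate block 0 oxidation genes fell or rose and 0 genes changed in limma, with 15 oxidation genes and 4918 genes at an unadjusted p under 0.05 and 2 residual degrees of freedom. Deviations from the group means on same-numbered arrays had correlations of -0.29, -0.05 and 0.07. So few correlations, with 3 inflamed arrays, cannot decide whether the numbers pair the mice. Under the import centring Acad10 and Bdh1 had differences of -0.49 and -0.47, against -0.31 and -0.29 as deposited. Mut passed under quantile normalization, array weights, an intensity trend, without dim genes, and under both centrings on a gene list. The causes were not tested.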
